A study of Danio rerio with 8 samples.

Results

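The start sites described here are those that wild-type zebrafish (Danio rerio) embryos used at 16 and at 12 hours post-fertilization (hpf), each stage measured in 2 libraries. They are 18692 regions out of 42130 found in the whole series: regions covered by both of the deposited cluster lists, with a mean of at least 1 RPM (tags per 1000000 tags) over the 4 wild-type libraries. Of the 23602 regions covered by both lists, 4910 were not kept. The lowest mean among the regions kept was 1.0005 RPM, and a region at 1.00, on the limit, was not kept. The 5 regions just under the limit averaged 0.9995 to 0.99975.

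Cap analysis gene expression (CAGE) captures RNAs by the cap at their 5′ end and sequences from there, so that tags pile up where transcription starts. A gene can have several such starts, and in vertebrates narrow clusters of starts are typical of promoters with a TATA box, broad ones of promoters in CpG islands. At the stages compared, the embryo is forming somites from head to tail, the segments that give rise to muscle and axial skeleton, while heart, blood and nervous system begin to differentiate. The comparison therefore asks how start site use changes as segmentation goes on.

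The groups were wild type (WT) at 16 hpf and WT at 12 hpf, set beside embryos carrying the sa37 allele of jam3b, labelled jam3b-sa37, at 16 and 12 hpf. The jam3b gene encodes a junctional adhesion molecule known in zebrafish for its part in the fusion of muscle precursors. All RNA came from whole embryos, and no treatment is named. How many embryos went into a library is not stated in the labels, nor whether libraries of a group came from separate clutches. The p-values measure the spread left among all 8 libraries once the shared difference between the cluster lists is taken out. That spread may be technical. In whole embryos, fewer cells of a type and less RNA per cell cannot be told apart. The files give no gene names, and no annotation of their build, danRer10, was used, so regions are named by position, in the coordinates of the files, and the tissue label was not checked against marker genes.

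The titles carry no number (replicate 1) or end in 2 (replicate 2), and each replicate number has its own cluster list with its own scaling. A region's levels in replicates 1 and 2 are therefore not on the same scale, and each stage difference was taken within a list. Summed over distinct clusters, the tags recovered from the RPM values of the WT libraries numbered 14804217 and 22956035 at 16 hpf. At 12 hpf they numbered 11713380 and 22593011, in the order of the replicates. Tags outside the listed clusters are not included. A count of 3 tags corresponds to 0.184 and 0.126 RPM at 16 hpf and 0.235 and 0.129 RPM at 12 hpf, which covers counting error only. List 1 holds no value between 0 and 0.55 RPM in the WT libraries, so a value of 0 there means under that level. The members held 97.8 and 98.6% of the distinct RPM at 16 hpf, and 97.9 and 98.8% at 12 hpf.

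Between the stages, more start regions rose than fell. In limma with the replicate number as a block, 2698 of the 18692 regions were called at an adjusted p under 0.05 (14.4%), of which 1893 were higher at 16 hpf (10.1%) and 805 were lower (4.31%). Differences are 16 minus 12 hpf on the log2(RPM + 1) scale, averaged over the replicate pairs, and understate the change of weak regions. The higher regions had a median log2 difference of 1.1 and the lower ones of -1.01, against 0.05 over all regions tested. The smallest difference called was 0.53 in size in either direction. On this scale 1104 regions were higher by at least 2-fold, 236 by at least 4-fold and 57 by at least 8-fold. Lower by the same folds were 411, 69 and 17 regions. Both values at 16 hpf lay above both values at 12 hpf in 2778 regions (14.9%), 1383 of them among the 1893 called higher. Both lay below in 2036 regions (10.9%), 614 of them among the 805 called lower. These counts compare levels across the lists, which are not on the same scale. A region can therefore change alike in both replicates and still overlap. The counts are a description and were not tested.

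The count rests on the block: without it limma called 8 regions, 7 higher and 1 lower. The share of calls that were higher was 70.2%, and 57.3% after quantile normalization (1491 higher, 1111 lower). It was 56.7% in edgeR (972 higher, 742 lower) and 55.1% in DESeq2 (1635 higher, 1330 lower), both with the block on recovered tags, where input, scaling and test all differ from limma.

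**Figure D1:**
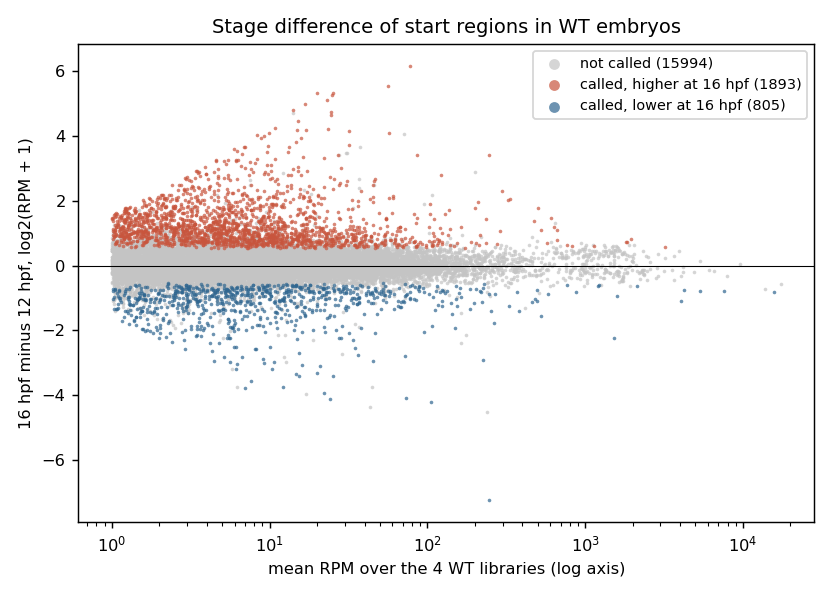
Stage difference of each of the 18692 regions in WT (16 minus 12 hpf, log2(RPM + 1)) against its mean RPM over the 4 WT libraries on a log axis. Points are coloured by the call; the 1893 higher regions extend to a difference of 6.17 and the 805 lower ones to -7.24.

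The replicate pairs were compared region by region. The stage difference had the same sign in both pairs in 13825 regions (74.0%), and in all 1893 higher and all 805 lower ones. The difference tested is the mean of these pairs, so agreement among the called regions follows largely from the calls. Across the 18692 regions the pair differences had a Pearson r of 0.74 and a Spearman rho of 0.69, as a description, since regions of a library share its depth and are not independent. In replicate 1, 1568 regions were at least 2-fold higher and 774 at least 2-fold lower, and in replicate 2 it was 1147 and 446. In both pairs 854 regions were at least 2-fold higher and 302 at least 2-fold lower, while 5 were so in opposite directions. The farthest apart of these 5, at chr10:11558674-11559033 on the plus strand, had 19.2 and 190 RPM at 16 hpf, against 54.6 and 31.0 RPM at 12 hpf.

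**Figure D2:**
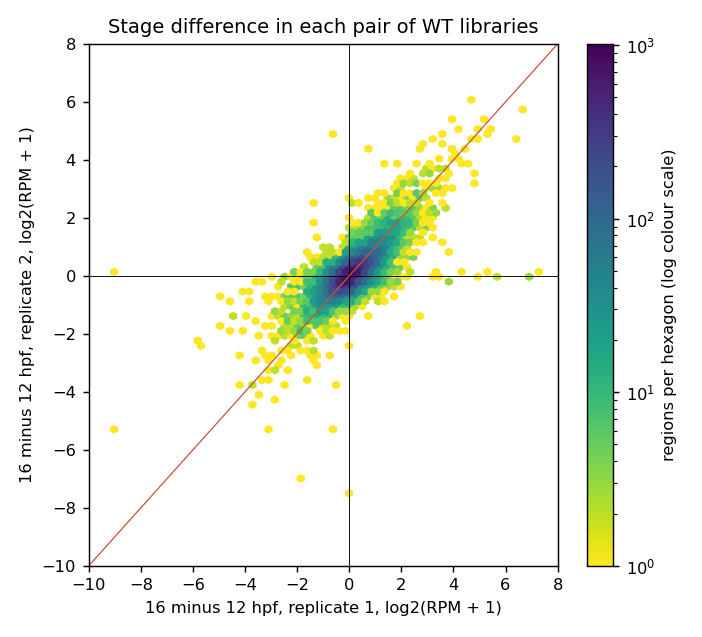
Stage difference in replicate 2 against that in replicate 1 (16 minus 12 hpf, log2(RPM + 1)), with the number of regions per hexagon on a log colour scale and the line of equal differences in red. The differences correlated with r of 0.74 across the 18692 regions.

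Among the regions called higher, the 10 with the largest difference had 0 to 4.46 RPM in every 12 hpf library. The largest was at chr2:2628871-2628920 on the plus strand, with 100 and 206 RPM at 16 hpf, against 0 and 3.04 RPM at 12 hpf. Its log2 difference was 6.17 (SE 0.31, limma adjusted p 0.000502). A region at chr13:24148407-24148618 on the plus strand had 81.5 and 140 RPM at 16 hpf, against 0 and 4.46 RPM at 12 hpf. Its log2 difference was 5.53 (SE 0.45, limma adjusted p 0.00156). In both regions each 16 hpf library was many times above each 12 hpf library, and the low level at 12 hpf was seen in replicate 2, whose list reaches down to 1 tag. Both calls were lost in limma without the block (adjusted p 0.0635 on chromosome 2 and 0.0802 on chromosome 13). The chromosome 13 call was also lost with a pseudocount of 0.1 RPM (limma adjusted p 0.0532).

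The strictest pattern, at or under 0.5 RPM in both 12 hpf libraries and at 20 RPM or more in both 16 hpf libraries, was met by 4 regions, and by 0 in the other direction. The region at chr9:39195537-39195575 on the minus strand had 22.9 and 78.2 RPM at 16 hpf, against 0 and 0.171 RPM at 12 hpf (log2 difference 5.33, SE 0.37, limma adjusted p 0.00107). The region at chr4:43029118-43029121 on the minus strand had 34.4 and 46.0 RPM at 16 hpf, against 0 and 0.043 RPM at 12 hpf (log2 difference 5.32, SE 0.26, limma adjusted p 0.000502). The last value corresponds to a single tag, and the start is narrow, its clusters being 3 bases long in list 1 and 2 in list 2. The region at chr13:39033844-39033987 on the minus strand had 28.6 and 38.1 RPM at 16 hpf, against 0 and 0.171 RPM at 12 hpf (log2 difference 4.97, SE 0.16, limma adjusted p 0.000199). The region at chr12:20218649-20218672 on the minus strand had 27.2 and 28.8 RPM at 16 hpf, against 0 and 0.086 RPM at 12 hpf (log2 difference 4.8, SE 0.14, limma adjusted p 0.000199). All 4 were within 4 tags of 0 in the 12 hpf library of replicate 2. The chromosome 9 call was lost in limma without the block (adjusted p 0.0625), while those on chromosomes 4, 13 and 12 were kept.

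Of the other large rises, a region at chr4:12033039-12033477 on the plus strand had 43.3 and 56.2 RPM at 16 hpf, against 0 and 0.686 RPM at 12 hpf. A region at chr6:15123713-15123877 on the plus strand had 39.9 and 51.8 RPM at 16 hpf, against 0 and 0.771 RPM at 12 hpf. A region at chr10:6316944-6317065 on the plus strand had 25.9 and 70.6 RPM at 16 hpf, against 0 and 1.71 RPM at 12 hpf. Their log2 differences were 5.28, 5.12 and 4.73 (SE 0.33, 0.23 and 0.26, limma adjusted p 0.000714, 0.000445 and 0.000597). The chromosome 10 call was lost in limma without the block (adjusted p 0.0692), while those on chromosomes 4 and 6 were kept. A region at chr4:16461431-16461887 on the minus strand was the one of the 10 listed above 0 in both lists at 12 hpf. It had 38.3 and 57.3 RPM at 16 hpf, against 1.1 and 0.728 RPM at 12 hpf (log2 difference 4.65, SE 0.23, limma adjusted p 0.000502).

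**Figure D3:**
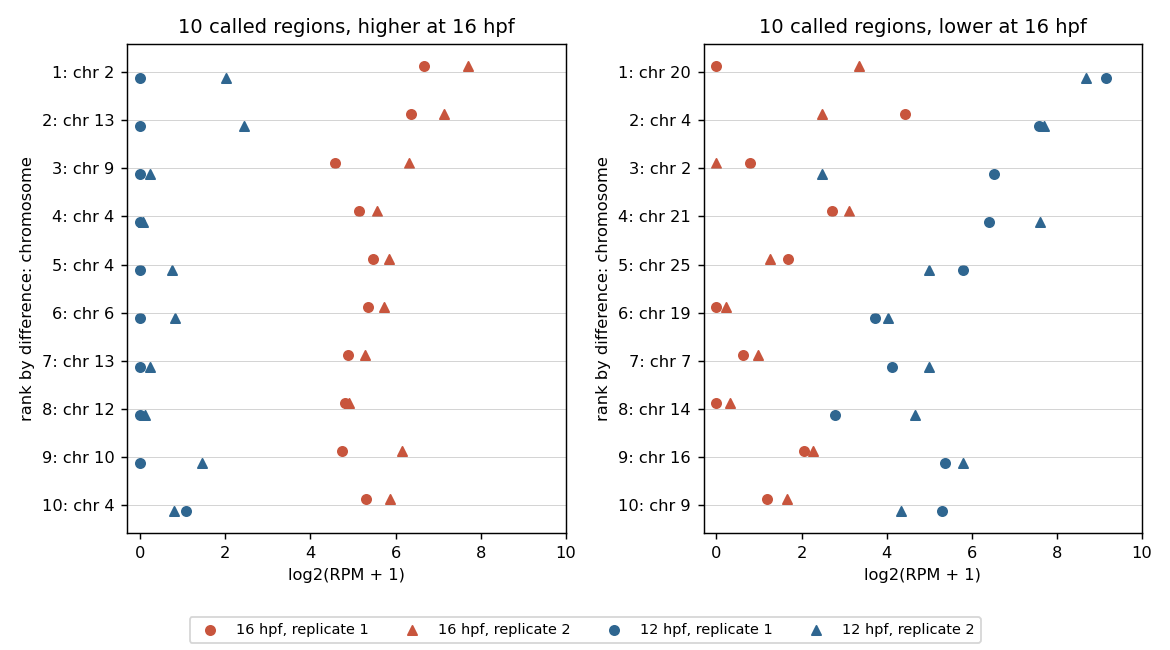
Levels (log2(RPM + 1)) of the 10 called regions with the largest difference in each direction, ranked by it and marked with their chromosome; red is 16 hpf, blue 12 hpf, circles replicate 1 and triangles replicate 2. The stages do not overlap in any of the 20 regions, which were picked for their large differences. Over all regions both 16 hpf values lay above both 12 hpf values in 14.9% and below in 10.9%, compared across lists that are not on the same scale.

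With the bound at 16 hpf lowered to 5 RPM, a level chosen after the values were seen, 24 regions were at or under 0.5 RPM in both 12 hpf libraries (0.128%), 23 of them called. In the other direction 4 regions met the bounds (0.0214%), 2 of them called. Of the 24, 3 were listed at 0 in both 12 hpf libraries. A region at chr15:23711702-23711710 on the minus strand had 5.51 and 19.5 RPM at 16 hpf, against 0 and 0 RPM at 12 hpf. A region at chr12:45458938-45459017 on the minus strand had 6.12 and 21.5 RPM at 16 hpf, against 0 and 0 RPM at 12 hpf. Both were called (limma adjusted p 0.00351 and 0.00372). The third, at chr3:39298181-39298192 on the plus strand, had 14.6 and 42.1 RPM at 16 hpf, against 0 and 0 RPM at 12 hpf, and was the one of the 24 not called (limma adjusted p 0.0603). Its mirror image, at chr3:1656005-1656059 on the plus strand, had 0 and 0 RPM at 16 hpf, against 12.3 and 12.5 RPM at 12 hpf, and just missed the threshold (limma adjusted p 0.0507). The WT pairs of this region differed by -3.73 and -3.75 and so were alike. The fit takes the SE of a region from all 8 libraries, and it was 1.31 at 39298181 and 0.98 at 1656005. In jam3b-sa37 the region at 39298181 had 0 and 17.1 RPM at 16 hpf, against 4.01 and 0 RPM at 12 hpf. The region at 1656005 had 0 and 0 RPM there, against 0 and 15.9 RPM.

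The largest fall was at chr20:31826740-31826809 on the minus strand, with 0 and 9.17 RPM at 16 hpf, against 568 and 409 RPM at 12 hpf. Its log2 difference was -7.24 (SE 1.3, limma adjusted p 0.0157). It was not called by edgeR or DESeq2, and not without the replicate 1 library of either stage. Its call was also lost in limma without the block (adjusted p 0.151, the highest over all alternatives) and with a pseudocount of 0.1 RPM (limma adjusted p 0.137). A region at chr4:55829505-55829512 on the plus strand, 7 bases long, had 20.4 and 4.54 RPM at 16 hpf, against 189 and 208 RPM at 12 hpf (log2 difference -4.19, SE 0.86, limma adjusted p 0.0244). A region at chr21:39532465-39532718 on the minus strand had 5.57 and 7.69 RPM at 16 hpf, against 84.4 and 195 RPM at 12 hpf (log2 difference -4.10, SE 0.71, limma adjusted p 0.0135). In both, each 16 hpf library lay far below each 12 hpf library. The calls were lost in limma without the block (adjusted p 0.4 and 0.358), with a pseudocount of 0.1 RPM and without some single libraries.

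A region at chr2:15046062-15046089 on the plus strand had 0.73 and 0 RPM at 16 hpf, against 90.9 and 4.54 RPM at 12 hpf. Its log2 difference was -4.10 (SE 0.76, limma adjusted p 0.017), and the replicates differed widely in its level at 12 hpf. Its call was lost without the 16 hpf library of replicate 1 and without the block. The adjusted p over the alternatives ran from 4.01e-06 in DESeq2 to 0.45 in limma without the block. Steadier between replicates was a region at chr25:352992-353002 on the minus strand, with 2.2 and 1.39 RPM at 16 hpf, against 54.4 and 31.0 RPM at 12 hpf (log2 difference -3.93, SE 0.41, limma adjusted p 0.00295). A region at chr7:7186869-7186973 on the minus strand had 0.55 and 0.967 RPM at 16 hpf, against 16.4 and 30.7 RPM at 12 hpf (log2 difference -3.75, SE 0.18, limma adjusted p 0.000502). Both replicate pairs of these regions fell by a similar amount. The calls on chromosomes 25 and 7 were still lost in limma without the block (adjusted p 0.0625 for each).

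A region at chr19:13261664-13261739 on the plus strand had 0 and 0.168 RPM at 16 hpf, against 12.2 and 15.5 RPM at 12 hpf (log2 difference -3.77, SE 0.24, limma adjusted p 0.000759). A region at chr14:32497816-32497852 on the plus strand had 0 and 0.252 RPM at 16 hpf, against 5.88 and 24.2 RPM at 12 hpf (log2 difference -3.56, SE 0.48, limma adjusted p 0.00619). These were the 2 called regions of the 4 at or under 0.5 RPM at 16 hpf and at 5 RPM or more at 12 hpf. A region at chr16:6880988-6881471 on the minus strand, whose clusters are 475 bases long in list 1 and 191 in list 2, had 3.18 and 3.78 RPM at 16 hpf, against 40.3 and 54.0 RPM at 12 hpf. A region at chr9:45030878-45031052 on the plus strand had 1.28 and 2.14 RPM at 16 hpf, against 38.6 and 19.3 RPM at 12 hpf. Their log2 differences were -3.41 and -3.41 (SE 0.28 and 0.38, limma adjusted p 0.00149 and 0.00337). Without the block the calls on chromosomes 14, 16 and 9 were lost (limma adjusted p 0.125, 0.0964 and 0.0635). The call on chromosome 19 was kept.

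The share of tags in changing starts shifted between the stages. Regions called higher held 5.88 and 7.04% of the members' RPM at 16 hpf, against 2.65 and 3.44% at 12 hpf. Regions called lower held 4.72 and 5.30% at 16 hpf, against 9.95 and 9.14% at 12 hpf. These shares follow from the calls and are given as a description. The regions not called held 89.4 and 87.7% at 16 hpf, against 87.4 and 87.4% at 12 hpf, so most of the tags came from regions with no called difference. The 10 strongest regions of each library held 9.39 and 8.6% of the members' RPM at 16 hpf, against 13.3 and 11.1% at 12 hpf.

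Several of the strongest regions lay close together on chromosome 4. Of the 10 regions with the highest mean, 4 lay there close together on the plus strand, and all 4 had lower RPM at 16 hpf in both replicates. The region at chr4:76322809-76323198 had 9363 and 13805 RPM at 16 hpf, against 18903 and 21082 RPM at 12 hpf (log2 difference -0.81, SE 0.16, limma adjusted p 0.0225). The region at chr4:76324372-76324607 had 5113 and 5901 RPM at 16 hpf, against 10762 and 8436 RPM at 12 hpf (log2 difference -0.79, SE 0.20, limma adjusted p 0.0428). Both were called. The strongest of all, at chr4:76322133-76322449, had 16329 and 11720 RPM at 16 hpf, against 24737 and 16913 RPM at 12 hpf, and was not called (log2 difference -0.56, SE 0.20, limma adjusted p 0.111). The fourth, at chr4:76321207-76321458, had 9550 and 10871 RPM at 16 hpf, against 20518 and 13932 RPM at 12 hpf, and also missed the threshold (log2 difference -0.73, SE 0.20, limma adjusted p 0.0576).

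On the same strand, between and beyond these, the regions at chr4:76322462-76322699 and chr4:76325023-76325164 were called lower as well. The first had 3054 and 3102 RPM at 16 hpf, against 6383 and 4284 RPM at 12 hpf (log2 difference -0.76, SE 0.19, limma adjusted p 0.0435). The second had 2763 and 2328 RPM at 16 hpf, against 7177 and 4000.5 RPM at 12 hpf (log2 difference -1.08, SE 0.18, limma adjusted p 0.0118). Of the 19 regions between positions 76300000 and 76400000 on this chromosome, 9 were called lower and 0 higher. Over all regions 4.31% were called lower and 10.1% higher. This stretch was picked for holding many calls, so the count is a description. Some of the 9 lay only a few bases apart, such as 76325023-76325164 and 76325166-76325228, and count as separate regions. Whether each of the 9 is a start of its own was not tested. Quantile normalization, which gives every library the same top values, brought the difference of the region that starts at 76322809 to 0.00 and ended its call. The calls at 76324372 and 76322462 were lost under it too, and those at 76322809, 76324372, 76322462 and 76325023 without either replicate 1 library, with highest adjusted p over the alternatives of 1, 0.755, 0.917 and 0.695.

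Away from chromosome 4, the region at chr23:3816446-3816612 on the minus strand had 4143 and 3765 RPM at 16 hpf, against 6977 and 6547 RPM at 12 hpf (log2 difference -0.77, SE 0.15, limma adjusted p 0.0218), a call lost when any single WT library was left out. The region at chr16:45950388-45950599 on the minus strand had 9167 and 10324 RPM at 16 hpf, against 8471 and 10624 RPM at 12 hpf (log2 difference 0.04, limma adjusted p 0.906). The region at chr25:35797376-35797391 on the plus strand had 6247 and 5351 RPM at 16 hpf, against 6556 and 6053 RPM at 12 hpf (log2 difference -0.12, limma adjusted p 0.662). Across the lists the stages overlapped at both of the last regions, although the chromosome 25 region was lower at 16 hpf within each list.

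Among strong regions called higher, the first by mean level was chr15:33355-33847 on the minus strand, with 3844 and 3848 RPM at 16 hpf, against 2664 and 2521 RPM at 12 hpf (log2 difference 0.57, SE 0.14, limma adjusted p 0.0452). The next, chr9:54612506-54612575 on the plus strand, had 3113 and 1927 RPM at 16 hpf, against 1601 and 1177 RPM at 12 hpf (log2 difference 0.83, SE 0.21, limma adjusted p 0.0435). The region at chr19:1905334-1905547 on the minus strand had 2895 and 1737 RPM at 16 hpf, against 1517 and 1198 RPM at 12 hpf (log2 difference 0.73, SE 0.18, limma adjusted p 0.0407). Each rose in both replicates, by less than 2-fold on the log2(RPM + 1) scale. The regions at chr19:17927823-17927899 on the plus strand and chr1:11576-11825 on the minus strand completed the 5, with log2 differences of 0.72 and 0.61 (SE 0.18 and 0.14, limma adjusted p 0.0473 and 0.0367). All 5 calls were lost in 9 or 10 of the 16 alternatives run, among them the pseudocount of 0.1 RPM, and the direction stayed.

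Rises were less frequent among the strongest regions, while falls were about as frequent at every level. The regions were split into 4 classes of equal size by mean RPM over the 4 WT libraries. In the weakest class, from 1.00 to 2.99 RPM, 11.4% of 4673 regions were called higher and 4.15% lower. In the second class, up to 8.17 RPM, it was 12.6 and 4.96%, and in the third, up to 23.5 RPM, 10.4 and 4.02%. In the strongest class 6.10% were called higher and 4.09% lower. The median log2 difference of the higher regions was 0.86 in the strongest class and 1.2 in the weakest, and that of the lower regions -0.92 and -1.05. The difference between classes was not tested.

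Start clusters of regions that fell had a longer median length than those of the rest in list 1. The length of a region's strongest WT cluster had a median of 60 bases in regions called higher, 96 in those called lower and 69 in those not called. In list 2, which cuts clusters differently, the medians were 71, 74 and 67 bases. Regions called lower were at or over 200 bases in 28.3% in list 1, against 13.5% of those called higher and 21.8% of those not called. Only list 1 thus put the higher regions below the rest, and the order of higher and not called turned round between the lists. In the strongest class the medians in list 1 were 96 bases for higher, 160 for lower and 100 for not called, and in the weakest class 37, 48 and 48. Regions called lower were also the most often very short. Clusters of at most 10 bases made up 12.0% of lower, 10.2% of higher and 7.25% of not called regions in list 1. In list 2 the shares were 16.4, 9.72 and 13.1%. Cluster length was not tested.

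The strands were alike: 10.2% of plus-strand and 10.01% of minus-strand regions were called higher, and 4.56 and 4.05% lower. Chromosomes varied more. On chromosome 9, 86 of 608 regions were called higher (14.1%) and 28 lower (4.61%). On chromosome 13 the numbers were 97 of 687 (14.1%) and 32 (4.66%). At the low end, chromosome 4 had 58 of 825 called higher (7.03%) and 41 lower (4.97%), and it was the only chromosome with a median difference below 0, at -0.09. Chromosomes 22 and 25 had the lowest shares called lower, 1.96 and 2.04%, and chromosome 23 the highest, 6.11%. The differences between chromosomes were not tested.

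**Figure D4:**
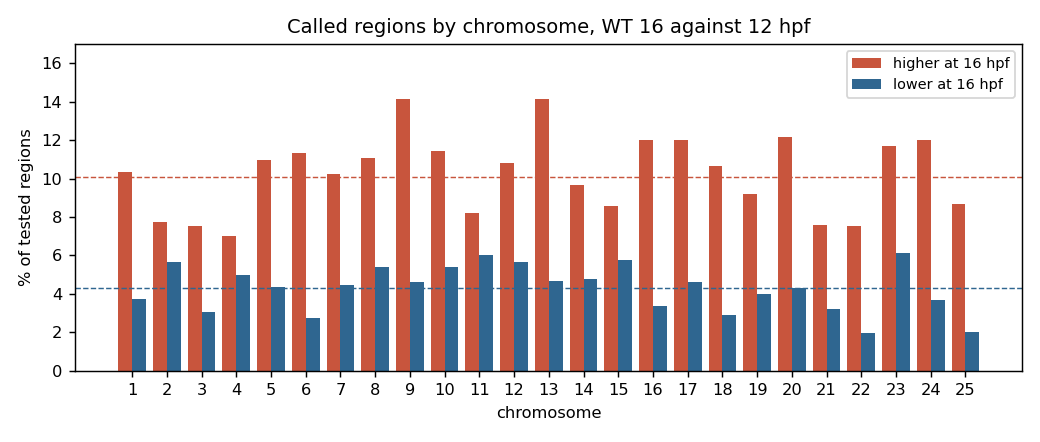
Percent of the tested regions of each chromosome called higher (red) and lower (blue) at 16 hpf in WT. Dashed lines mark the share over all 18692 regions, 10.1% higher and 4.31% lower; chromosomes 9 and 13 reach 14.1% higher and chromosome 4 has 7.03%.

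Some stretches held several called regions. In windows of 100000 bases, a size chosen after the values were seen, 7465 windows held a region and 958 held at least 5. At least 5 regions were called in the same direction in 8 windows, 7 of them with falls. The windows were picked for these counts, which are a description. Over all regions 10.1% were called higher and 4.31% lower, and whether calls cluster was not tested. Regions only a few bases apart counted as separate here, as at the chromosome 4 locus above. On chromosome 8 all 7 regions between positions 52900000 and 53000000 fell, all on the minus strand and within 50459 bases. The strongest of them, at chr8:52952112-52952288, had 44.7 and 78.0 RPM at 16 hpf, against 169 and 309 RPM at 12 hpf (log2 difference -1.94, SE 0.15, limma adjusted p 0.00127). It lay at the upstream end in the direction of transcription. The 6 downstream regions were weak at both stages. Replicate 1 had 0 to 1.35 RPM there at 16 hpf, against 0.55 to 6.82 RPM at 12 hpf, and the library pair of list 2 had 0.757 to 2.99 RPM at 16 hpf, against 3.21 to 11.1 RPM at 12 hpf.

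Chromosome 9 showed the same arrangement between positions 46600000 and 46700000, where all 5 regions fell, on the minus strand and within 10030 bases. The upstream one, at chr9:46615217-46615391, had 346 and 284 RPM at 16 hpf, against 756 and 582 RPM at 12 hpf (log2 difference -1.08, SE 0.15, limma adjusted p 0.00648). The weaker regions downstream differed by -0.82 to -1.14 on the log2 scale. On chromosome 5, 5 of 6 plus-strand regions between positions 44200000 and 44300000 fell. The strongest of these, at chr5:44204720-44204732, had 147 and 26.9 RPM at 16 hpf, against 334 and 61.4 RPM at 12 hpf (log2 difference -1.17, SE 0.15, limma adjusted p 0.00505). On chromosome 23, 8 of 17 minus-strand regions between positions 3800000 and 3900000 were called lower and 0 higher, the region at 3816446 described above being the strongest.

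On chromosome 10, the window from 45100000 to 45200000 held 5 falls and 1 rise. Its largest fall was at chr10:45155413-45155591 on the minus strand, with 11.8 and 24.7 RPM at 16 hpf, against 139 and 113 RPM at 12 hpf (log2 difference -2.80, SE 0.35, limma adjusted p 0.00505). The window from 8000000 to 8100000 on this chromosome held 5 falls and 1 rise too, all on the minus strand. The window with rises was on chromosome 8, between positions 18500000 and 18600000, where 5 of 7 regions on both strands rose, spread over 91521 bases. Its largest rise, at chr8:18502122-18502299 on the minus strand, had 10.2 and 10.1 RPM at 16 hpf, against 1.41 and 1.29 RPM at 12 hpf (log2 difference 2.25, SE 0.20, limma adjusted p 0.00193). In this window the rises were of separate regions on both strands. The falls lay on a single strand on chromosomes 4, 5, 8, 9 and 23 and in the chromosome 10 window from 8000000. In the chromosome 10 window from 45100000 the falls lay on both strands.

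Neighbours on the same strand often had differences of the same sign. Of 3521 pairs of adjacent same-strand regions at most 5000 bases apart, 71.3% had differences of the same sign, and the differences correlated across pairs with r of 0.51. The median gap was 1338 bases, and the pairs include regions only a few bases apart. In 130 pairs both regions were called: both higher in 55, both lower in 69 and opposite in 6. In 388 pairs only 1 was called. Counted once per pair, 9.20% of the regions in these pairs were called, against 14.4% of all regions tested. Higher calls made up 4.00%, against 10.1% over all regions, and lower calls 5.20%, against 4.31%. Of 361 divergent pairs, a minus-strand region followed by a plus-strand one at most 500 bases on, 59.0% had the same sign, with r of 0.28. Both were called in 3 divergent pairs, against 49 in which only 1 was. Convergent pairs within 500 bases numbered 43, with 46.5% of the same sign and 0 with both called. In divergent pairs 7.62% of the regions were called and in convergent pairs 6.98%, also below the share over all regions. Called higher and lower were 5.96 and 1.66% in divergent pairs, and 2.33 and 4.65% in convergent pairs. Same-sign shares of distant pairs are not given. Pairs share libraries, and the difference between the kinds of pair was not tested.

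**Figure D5:**
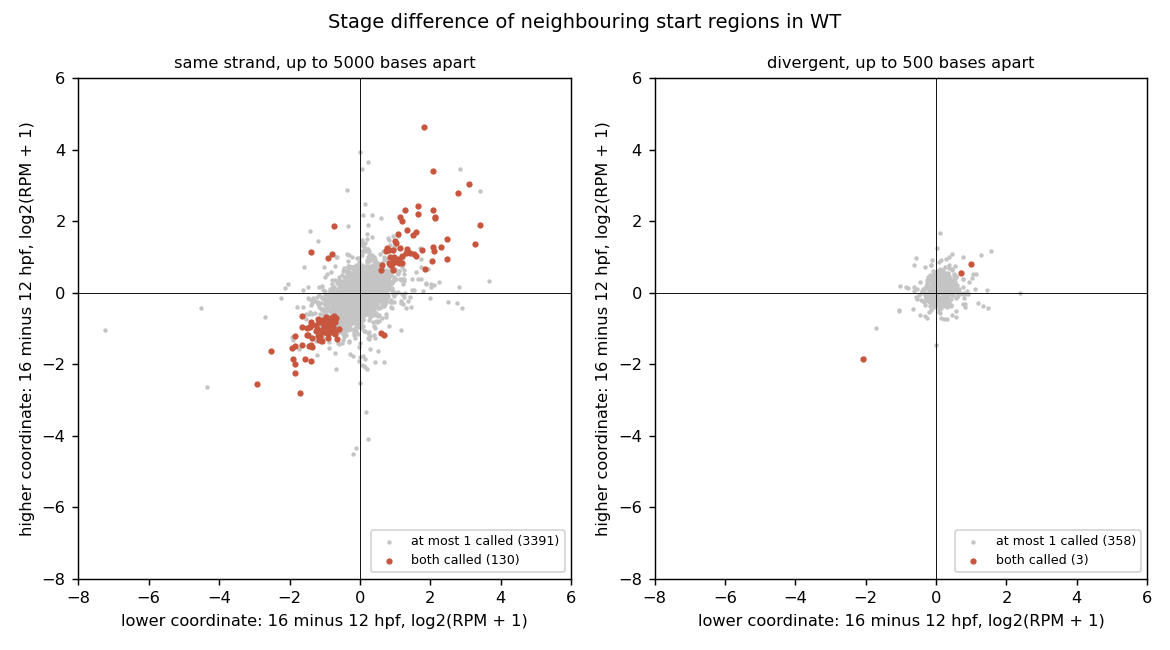
Stage difference (16 minus 12 hpf, log2(RPM + 1)) of the region with the higher coordinate against that of its neighbour, for 3521 same-strand pairs up to 5000 bases apart (left) and 361 divergent pairs up to 500 bases apart (right). Red points are pairs with both regions called, 130 on the left, of which 6 have opposite signs, and 3 on the right.

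In 6 same-strand pairs a region that fell lay beside one that rose. On chromosome 19, minus strand, the region at chr19:5142340-5142474 had 96.2 and 78.0 RPM at 16 hpf, against 49.3 and 33.2 RPM at 12 hpf (log2 difference 1.08, SE 0.20, limma adjusted p 0.0176). The region 558 bases downstream, at chr19:5141675-5141782, had 24.4 and 50.4 RPM at 16 hpf, against 46.1 and 82.1 RPM at 12 hpf (log2 difference -0.79, SE 0.15, limma adjusted p 0.0206). In replicate 2 the upstream start was the stronger at 16 hpf and the weaker at 12 hpf, while in replicate 1 it was the stronger at both stages. On chromosome 24, minus strand, the region at chr24:16994813-16995228 had 17.5 and 28.3 RPM at 16 hpf, against 8.23 and 14.3 RPM at 12 hpf (log2 difference 0.97, SE 0.15, limma adjusted p 0.0091). Its downstream neighbour, 821 bases away at chr24:16993915-16993992, had 2.69 and 5.72 RPM at 16 hpf, against 5.41 and 12.4 RPM at 12 hpf (log2 difference -0.90, SE 0.19, limma adjusted p 0.0257).

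On chromosome 11 the neighbours were 284 bases apart on the plus strand. The downstream region, at chr11:19894791-19894898, had 10.2 and 13.5 RPM at 16 hpf, against 25.01 and 30.9 RPM at 12 hpf (log2 difference -1.18, SE 0.21, limma adjusted p 0.0154), while the upstream one, at chr11:19894388-19894507, rose by 0.70 on the log2 scale (SE 0.17, limma adjusted p 0.0397). On chromosome 9 the region at chr9:1978180-1978348 on the minus strand had 9.3 and 14.5 RPM at 16 hpf, against 0.94 and 5.06 RPM at 12 hpf (log2 difference 1.88, SE 0.30, limma adjusted p 0.0103). Its neighbour 1246 bases downstream fell by 0.74 on the log2 scale (SE 0.19, limma adjusted p 0.0466) and stayed at or under 2.4 RPM. The other 2 pairs, on chromosomes 3 and 8, lay 4048 and 2589 bases apart. In all 6 the members of a pair also had opposite signs in jam3b-sa37.

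Among divergent pairs, the starts at chr16:26858511-26858533 on the minus strand and chr16:26858585-26858666 on the plus strand, 52 bases apart, differed most. The minus-strand start had 4.59 and 15.3 RPM at 16 hpf, against 0.55 and 1.2 RPM at 12 hpf (log2 difference 2.37, SE 0.25, limma adjusted p 0.00311). The plus-strand start had 2.51 and 7.15 RPM at 16 hpf, against 2.98 and 6.26 RPM at 12 hpf (log2 difference -0.01, SE 0.19, limma adjusted p 0.985). The pair was chosen for this difference, so it is a description.

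The same regions were read in jam3b-sa37 embryos, whose 4 libraries are separate from those of the WT stages. Both stage differences come from the same lists and the same fit, with 1 SE per region, so their calls are not independent. Over all 18692 regions the median stage difference was 0.12 in jam3b-sa37 and 0.05 in WT. In jam3b-sa37, 2669 of these regions were called between the stages (14.3%). Of the 2698 regions called in WT, 1820 were called there too (67.5% of the WT calls and 68.2% of the jam3b-sa37 calls), all with the same sign. The regions that rose in WT were called in jam3b-sa37 in 1441 of 1893 cases, with a median log2 difference there of 1.04. Those that fell were called in 379 of 805, with a median of -0.70. The sign was opposite in 8 of the higher and 32 of the lower regions. It was the same in 98.2% of the regions called in WT and in 76.2% of all regions tested. The regions were picked by their WT differences, so the medians of the genotypes are not on equal terms. A test of the difference between the genotypes' stage effects called 0 regions in limma with the block (842 at an unadjusted p under 0.05, smallest adjusted p 0.35), so none of these contrasts is shown to differ.

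The smallest p in that test belonged to the chromosome 12 region at 20218649. In jam3b-sa37 it had 5.38 and 6.27 RPM at 16 hpf, against 0 and 0.172 RPM at 12 hpf, a log2 difference of 2.65 (4.8 in WT). The region at 13261664 on chromosome 19 differed by -1.22 in jam3b-sa37 (-3.77 in WT, limma adjusted p of the difference 0.837), with 0 and 0.083 RPM at 16 hpf, against 1.96 and 0.973 RPM at 12 hpf. The region at 39532465 on chromosome 21 differed by 0.02 in jam3b-sa37 (limma adjusted p of the difference 0.981), and its pairs went opposite ways, with 8.03 and 118 RPM at 16 hpf, against 20.7 and 47.2 RPM at 12 hpf. The region at chr12:45458938-45459017, which appeared in WT at 16 hpf, was listed at 0 in all 4 jam3b-sa37 libraries (limma adjusted p of the difference 0.837), and was chosen after its values were seen. The other 9 of the 10 largest rises differed by 4.68 to 5.76 in jam3b-sa37.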

How the data were processed

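Each deposited file gives CAGE tag clusters with 1 RPM value each (tags per 1000000), counted and scaled by the authors; that the unit is RPM was inferred from column totals and value steps. BWA, HISAT2 and the build danRer10 are named in the submitters' processing notes, without role or order; the clustering method and the tag total are not given in the sources used here. Libraries whose titles carry no number (replicate 1) share 1 cluster list and those ending in 2 (replicate 2) share another, and the lists were normalized separately. In every library 100.0% of the values up to 1000 steps were whole multiples of 1 step within rounding; chance would give 11.7 to 17.3% for list 1 libraries, and for list 2 libraries 1.7 to 2.4%. The steps gave 10662458 to 23300915 tags in the distinct clusters of a library.

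Repeated rows (412 in list 1, 796 in list 2) were dropped. Same-strand clusters of the lists that shared at least 1 base were merged, RPM was summed per region, and regions of both lists averaging 1 RPM or more in the 4 wild-type libraries were kept. Stage differences were tested on log2(RPM + 1) in limma 3.58.1 (R 4.3.3), fitting all 8 libraries with 4 group means and the replicate number as a block. P-values were two-sided and adjusted by Benjamini-Hochberg over all regions tested; a region was called under 0.05. The block follows the titles. The difference between replicates correlated across regions with r of 0.69 to 0.834 between any pair of the 4 groups. Since each replicate number has its own cluster list, this shows that the lists differ alike in all groups. It cannot show that libraries with the same number are matched in any other way. EdgeR 4.0.16 and DESeq2 1.42.0 were run on recovered tags as alternatives.

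Named regions were the 10 called per direction with the largest difference, the 5 called per direction with the highest mean RPM, and those at or under 0.5 RPM at one stage and at 20 RPM or more at the other, 30 in all. The regions, lists and rules were chosen with earlier results of these data known. Left out were the regions covered by a single list, whose values stand in the closing section. An intensity trend and a lower bound of 0.5 RPM were added as alternatives after seeing the data. No gene names, sequences or marker checks are given, as the gene table at hand is of another assembly.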

Additional observations from a re-analysis of the deposited data

Results flagged for a closer look

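Regions covered by list 1 alone entered no comparison, and 20 of the 6397 were at 5 RPM or more in the WT library at 16 hpf and at or under 0.5 RPM at 12 hpf, which drew attention as a signal outside the data compared. In the other direction there were 21, and 1 of the 20 and 0 of the 21 met the same bounds in jam3b-sa37. The strongest of the 20, at chr11:41423592-41423604 on the plus strand, had 161 RPM at 16 hpf, against 0 RPM at 12 hpf, and in jam3b-sa37 3.76 RPM at 16 hpf, against 0 RPM at 12 hpf. Each was measured in a single library per stage, so the difference has no replicate check. Of the 12131 regions of list 2 alone, 0 met either bound.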

How the results depend on the processing

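The replicate block decided the count: the fit with it called 2698 regions (1893 higher, 805 lower) and the fit with no replicate block 8 (7 higher, 1 lower), with 7 of the 30 named regions still called. A pseudocount of 0.1 RPM gave 1051 (765 higher, 286 lower) and kept 17 of the named regions. EdgeR on recovered tags with the block gave 1714, of which 972 were higher and 1513 were shared with the limma calls. DESeq2 gave 2965, with 1635 higher and 1330 lower. Leaving out a WT library, with the lone sample assumed to vary like the other groups, gave 827 regions without the 12 hpf library of replicate 1, 966 without that at 16 hpf, 1769 without the 12 hpf library of replicate 2 and 1127 without that at 16 hpf. Higher regions ranged from 647 to 1269, lower ones from 180 to 500 and named regions still called from 17 to 21. Their cause was not tested, except that fewer samples enter the last ones. The other planned and added settings, which were the WT libraries alone, no filter, a mean of at least 5 RPM, quantile normalization, recomputed RPM, single-list regions counted as 0, an intensity trend and values below 0.5 RPM set to 0, gave 2017 to 3179 regions and 23 to 30 named ones. No named region changed sign in any setting, though 1 differed by 0.00 after quantile normalization. Quantile normalization shifted the median of all regions by -0.10 on the log2 scale. With 2 libraries per stage on different lists, weak regions are limited by the 0.55 RPM lower bound of list 1, and a region that missed the threshold is not shown to be unchanged.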
